A study of Mus musculus with 6 samples.

Results

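Interferon stimulated genes, whose transcription rises in cells that have bound interferon, were followed in mouse liver after 2 days of high fat feeding. A list of 47 such genes was used, and a member counted as measured where a probe set carried its symbol and no other in the platform annotation, with the brightest probe set (by mean over all 6 arrays) used for a gene with more than 1. By this rule 39 of the 47 members were measured, out of 19938 genes measured in the same way. The HFD group was C57BL/6 mice, an inbred laboratory strain, with free access to a high fat diet for 2 days, and the RD group was C57BL/6 mice with free access to a regular diet for the same time. Total RNA from the frozen liver of 3 biological replicates per diet was measured, with 1 array for each replicate. The sample titles of both groups include the letters NI, for which no label gives a meaning, so whether the mice of both diets shared a further condition is unknown. The sources used here do not give diet composition, sex or age. Values are log2 expression, and 1 unit is a 2-fold step.

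The 8 members with no value of their own were Oas1g, Isg15, Gbp2, Gbp6, Igtp, Irgm2, Ifi47 and Ifi44. For 7 of them the array has a probe set shared with other genes, as for Igtp and Irgm2, which share 1 with each other, and Ifi44 was listed on none. No value is given under these names. Array medians over all probe sets lay between 7.06 and 7.11, and with 3 arrays per diet precision is limited by that number. Transcripts of hepatocytes, the main cells of the liver, were on average at like levels in every array: 7 hepatocyte markers averaged 13.75 to 13.79 in the HFD arrays and 13.76 in each RD array. By gene, HFD minus RD ran from -0.05 (Cps1) to 0.12 (Asgr1), and in both of these the diets did not overlap.

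Type I interferons (alpha and beta) and type III interferons (lambda) activate the kinases JAK1 and TYK2 at their receptors. A complex that holds STAT2 and IRF9 then binds the interferon-stimulated response element in promoters. Type II interferon (gamma) acts through JAK1 and JAK2 and leads to binding at the gamma-activated site. The induced genes encode sensors of foreign nucleic acid, enzymes and binding proteins that interfere with viral replication, GTPases that attack the vacuoles of intracellular microbes, and factors that feed back on the response itself. In the liver, hepatocytes, endothelial cells and the resident macrophages (Kupffer cells) can all respond to interferon.

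The HFD arrays did not behave alike for these genes, and HFD replicate 1 stood apart. Its value was the highest of the 3 HFD arrays in 35 of 39 members (89.7%), whereas it was the highest in 33.6% of all genes. It was the highest of all 6 arrays in 25 members (64.1%), against 20.0% of all genes. The median member lay 0.28 above its RD mean in HFD replicate 1, but 0.05 below it in HFD replicate 2 (-0.05) and close to it in HFD replicate 3 (-0.0029). This pattern was seen in the values and is described with no test, and beside each difference between the diets that leaving out HFD replicate 1 moved by over 1.5 times, the value without it is given.

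**Figure D1:**
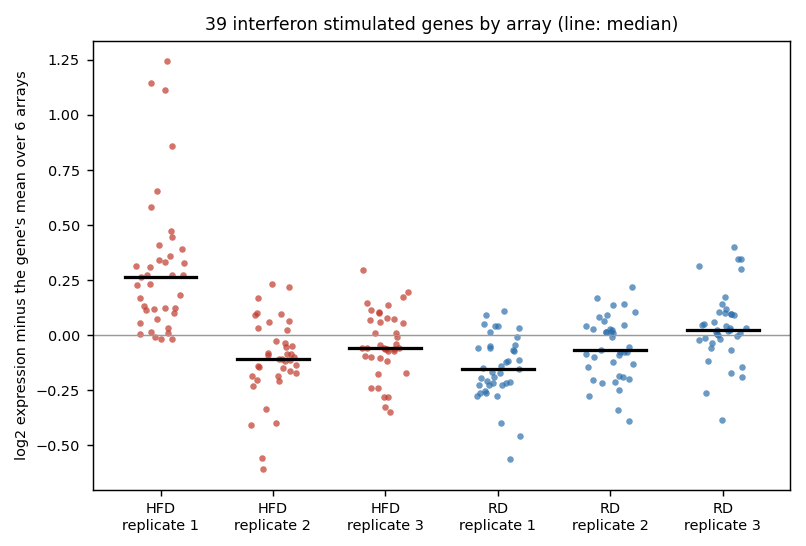
Each point is 1 of the 39 measured interferon stimulated genes, the y axis is its log2 expression minus its own mean over the 6 arrays, and the black lines are medians (0.26, -0.11 and -0.06 in HFD replicates 1, 2 and 3, and -0.15, -0.07 and 0.02 in RD replicates 1, 2 and 3). In HFD replicate 1, 36 of 39 genes lie above their mean, against 10 and 15 in HFD replicates 2 and 3 and 7, 17 and 26 in RD replicates 1, 2 and 3.

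Between the diets, few interferon stimulated genes differed beyond the spread between arrays. With all 19938 genes fitted in limma and p-values adjusted over all of them by Benjamini-Hochberg, 2 of 39 members rose in HFD, Bst2 and Ddx58, where 3.11% of all genes rose at the same threshold (adjusted p under 0.05). None of the 39 fell, where 2.24% of all genes did (5.35% in either direction). At an unadjusted p under 0.05, 6 members were higher and 3 lower in limma, beside 11.0% and 8.65% of all genes. An unmoderated linear model called 0 members in either direction at an adjusted p under 0.05. The 3 HFD values lay wholly above the 3 RD values in 5 members (Ddx58, Zbp1, Irf1, Irf7 and Bst2; 14.0% of all genes) and wholly below them in 4 (Stat2, Oas2, Rsad2 and Parp9; 11.7% of all genes). These shares are near the background, so the count of calls does not set the list apart from other genes. The difference, HFD minus RD, was positive in 27 members and negative in 12, with a median of 0.11 (-0.0029 over all genes) and a range from -0.45 (Ifit1) to 0.68 (Zbp1). Without HFD replicate 1 it was positive in 19 and negative in 20, and the median was -0.0016. Because whole liver was measured, fewer cells of a type and less RNA per cell cannot be told apart in any of these values.

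**Figure D2:**
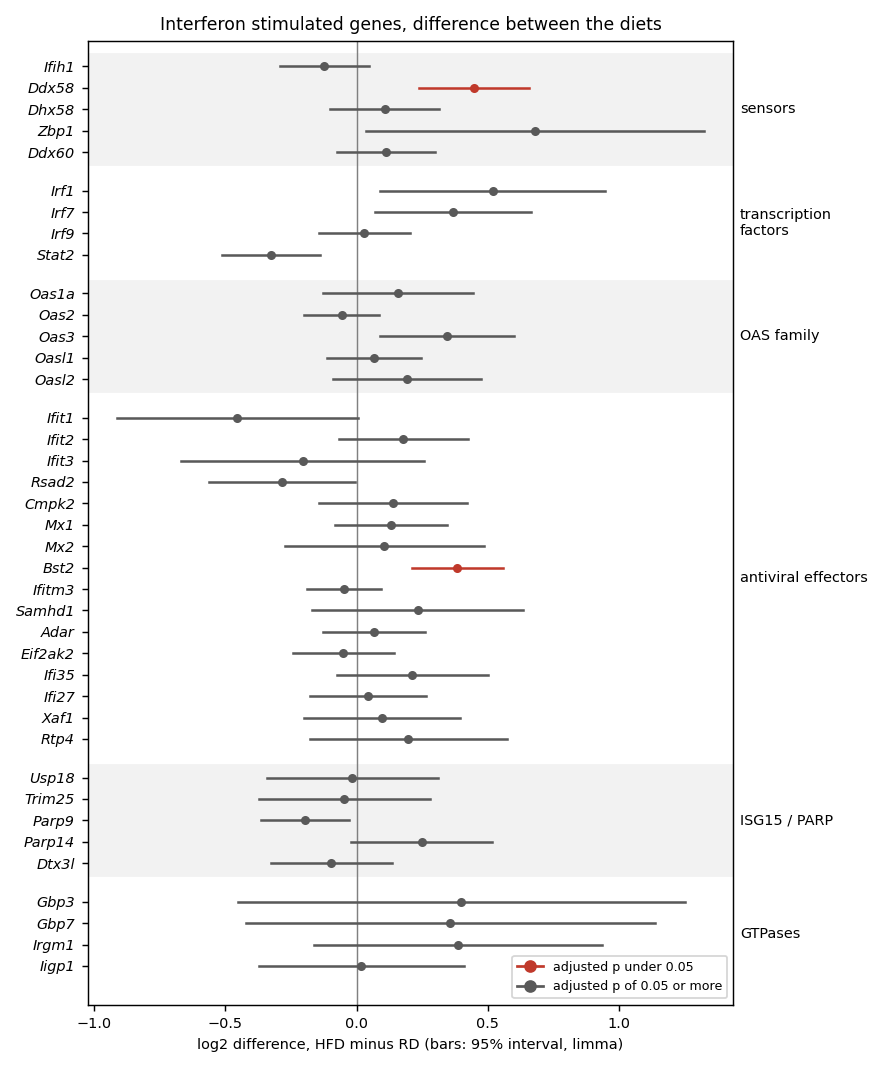
The x axis is the log2 difference, HFD minus RD, of each measured member with its 95% interval from limma, and members are grouped by role down the page. Bst2 (0.38) and Ddx58 (0.45) are drawn in red as the 2 members with an adjusted p under 0.05, and the intervals of Gbp3, Gbp7, Irgm1 and Zbp1 are wide.

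Bst2 encodes tetherin, a membrane protein that holds budding virus particles at the cell surface. Its values were 10.14, 9.92 and 9.96 in HFD replicates 1, 2 and 3, against 9.62, 9.63 and 9.63 in RD replicates 1, 2 and 3. Each HFD array was above each RD array, and the RD values spanned almost no range. The mean was 10.01 ± 0.12 in HFD livers and 9.63 ± 0.0020 in RD livers (SD, n = 3 each), a difference of 0.38 ± 0.08 (SE) or 1.30-fold, with an adjusted p of 0.028 in limma. Without HFD replicate 1 the difference was 0.32 and the call was lost (adjusted p = 0.069 in limma). Of the 6 fits that each dropped an array, the call was kept in the fit without HFD replicate 2 and lost in the other 5 (highest adjusted p 0.094).

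Ddx58 encodes RIG-I, the cytosolic helicase that recognises short double-stranded RNA and starts interferon production. Its values were 10.83, 10.77 and 10.73 in HFD replicates 1, 2 and 3, against 10.15, 10.35 and 10.49 in RD replicates 1, 2 and 3. The HFD arrays were close together and all above the RD arrays, among which RD replicate 1 was low. The difference was 0.45 ± 0.09 (SE) or 1.36-fold, with an adjusted p of 0.031 in limma. HFD replicate 1 contributed little here, since the difference without it was 0.42, although with fewer arrays the call was lost (adjusted p = 0.093 in limma). Dropping RD replicate 3 kept the call, and dropping any other array lost it (highest adjusted p 0.094).

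The promoters of the members were searched for the elements through which interferon acts. RefSeq promoters (mouse assembly GRCm38.p6, 250 bases before to 50 after the transcription start) were held for 35 of the 47 members. Both strands were read for the core of the interferon-stimulated response element, GAAANNGAAA or its reverse complement TTTCNNTTTC, and for the core of the gamma-activated site, TTCNNNGAA, which reads alike on both strands; cores may overlap. The response element core was found in 20 of 35 members (57.1%), against 1079 of 27025 genes with a promoter of the same length (3.99%). The gamma-activated site core was found in 12 of 35 (34.3%), against 9.55% of genes. The windows below show the matches to the response element core in capitals with their flanks, 5′ to 3′ on the strand of the gene, for the 2 members that rose and for the 4 other measured members with the most cores (ties taken by the smaller unadjusted p), so that the called genes can be read beside genes that carry the same element and were not called.
Bst2, chr8:71537567-71537622, minus strand: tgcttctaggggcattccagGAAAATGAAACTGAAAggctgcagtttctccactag
Ddx58, chr4:40239801-40239843, minus strand: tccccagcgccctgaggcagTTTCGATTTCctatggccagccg
Ifit1, chr19:34640765-34640833, plus strand: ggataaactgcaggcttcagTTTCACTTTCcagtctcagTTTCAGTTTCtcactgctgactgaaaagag
Irgm1, chr11:48871415-48871470, minus strand: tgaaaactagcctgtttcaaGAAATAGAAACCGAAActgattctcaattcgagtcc
Ddx60, chr8:61928014-61928097, plus strand: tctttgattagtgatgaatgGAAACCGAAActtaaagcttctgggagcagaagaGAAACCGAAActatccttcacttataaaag
Oas1a, chr5:120907510-120907565, minus strand: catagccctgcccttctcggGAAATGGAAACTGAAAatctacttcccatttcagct

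In Bst2, Irgm1 and Oas1a 2 cores overlap in a run of 16 bases, since the second begins inside the first, while Ifit1 and Ddx60 hold 2 separate cores. The first core begins 130 bases before the transcription start in Bst2, 104 in Ifit1, 53 in Ddx60, 30 in Irgm1 and 20 in Oas1a, and the core of Ddx58 begins at base 3 of the transcript. A core was thus present in members that rose, in Ifit1 (difference -0.45) and in Oas1a (difference 0.16), neither of which passed. Isg15, which has no value of its own here, held the most cores, 3. The gamma-activated site core is not marked in the windows. Of these 6 promoters, those of Bst2 and Oas1a hold 1 each, and the one in Bst2 lies in the window printed and shares 3 bases with the capitals. A match describes these letters in this window and says nothing of binding.

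Among the sensors, 5 of 5 were measured, 4 had a positive difference and Ddx58 was the only one that passed. Zbp1 encodes a sensor of Z-form nucleic acid that can trigger cell death. Its values were 9.78, 8.56 and 8.68 in HFD replicates 1, 2 and 3, against 8.21, 8.28 and 8.49 in RD replicates 1, 2 and 3. All HFD arrays were above all RD arrays, but HFD replicate 1 lay more than 1 unit above the other arrays of its group. The difference of 0.68 ± 0.28 (SE) did not pass (adjusted p = 0.23 in limma) and was 0.29 without HFD replicate 1. Ifih1 encodes MDA5, the sensor of long double-stranded RNA, and gave 10.05, 9.85 and 9.89 in HFD livers, against 10.03, 10.10 and 10.04 in RD livers. Its difference of -0.12 ± 0.07 was opposite in sign to that of Ddx58 and did not pass (adjusted p = 0.41 in limma). Dhx58, which encodes LGP2, a helicase that modulates both sensors, and Ddx60, a helicase linked to RIG-I signalling, both differed by 0.11 with overlapping groups, and Ddx60 by 0.06 without HFD replicate 1.

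Of the transcription factors 4 of 4 were measured and 0 passed. Stat2, the partner of IRF9 in the complex that binds the response element, was at 10.10, 9.89 and 9.88 in HFD replicates 1, 2 and 3, against 10.21, 10.34 and 10.30 in RD replicates 1, 2 and 3. Every HFD array was below every RD array, and HFD replicate 1 lay nearest to the RD arrays. The difference was -0.33 ± 0.08 (SE), or 1.25-fold lower in HFD, with an adjusted p of 0.059 in limma. Without HFD replicate 1 it was -0.40 and passed (adjusted p = 0.043 in limma), and it also passed under 3 other settings given in the closing section. Irf9, its DNA-binding partner, gave 10.22, 10.03 and 10.04 in HFD livers, against 10.01, 10.13 and 10.06 in RD livers, a difference of 0.03 ± 0.08, or -0.03 without HFD replicate 1.

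Irf7, the factor that amplifies type I interferon transcription, was at 11.03, 10.57 and 10.82 in HFD livers, against 10.56, 10.53 and 10.24 in RD livers. Irf1, an early factor induced strongly by interferon gamma, was at 10.08, 9.49 and 9.48 in HFD livers, against 8.86, 9.21 and 9.42 in RD livers. In both genes the groups did not overlap and HFD replicate 1 was the highest array, and the nearest arrays of the 2 diets almost met in both (HFD replicate 2 and RD replicate 1 for Irf7, HFD replicate 3 and RD replicate 3 for Irf1). The differences of 0.37 ± 0.13 for Irf7 and 0.52 ± 0.19 for Irf1 did not pass (adjusted p = 0.16 and 0.17 in limma) and were 0.26 and 0.32 without HFD replicate 1. A second, dimmer probe set of Irf1 differed by -0.04 ± 0.08, so the 2 probe sets of this gene disagree.

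The oligoadenylate synthetases make a messenger that activates RNase L, which degrades RNA in infected cells, and the OASL proteins are their relatives. Of 6 listed, 5 were measured, 4 with a positive difference, and 0 passed. Oas3 was at 7.19, 7.44 and 7.50 in HFD replicates 1, 2 and 3, against 6.95, 6.93 and 7.23 in RD replicates 1, 2 and 3. It was the clearest exception to the pattern of HFD replicate 1, which was the lowest HFD array here and fell below RD replicate 3. Its difference was 0.34 ± 0.11 (adjusted p = 0.13 in limma), or 0.44 without HFD replicate 1 (adjusted p = 0.087 in limma). Oasl2 gave 9.72, 9.24 and 9.49 in HFD livers, against 9.16, 9.31 and 9.40 in RD livers, a difference of 0.19 ± 0.12 with overlapping groups, or 0.07 without HFD replicate 1. Oas2 was nearly flat at 8.46, 8.38 and 8.48 in HFD livers, against 8.48, 8.51 and 8.50 in RD livers. Its groups did not overlap, but the difference of -0.06 ± 0.06 was no larger than its error. Oas1a and Oasl1 differed by 0.16 and 0.07 with overlapping groups, and Oas1a by 0.07 without HFD replicate 1.

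**Figure D3:**
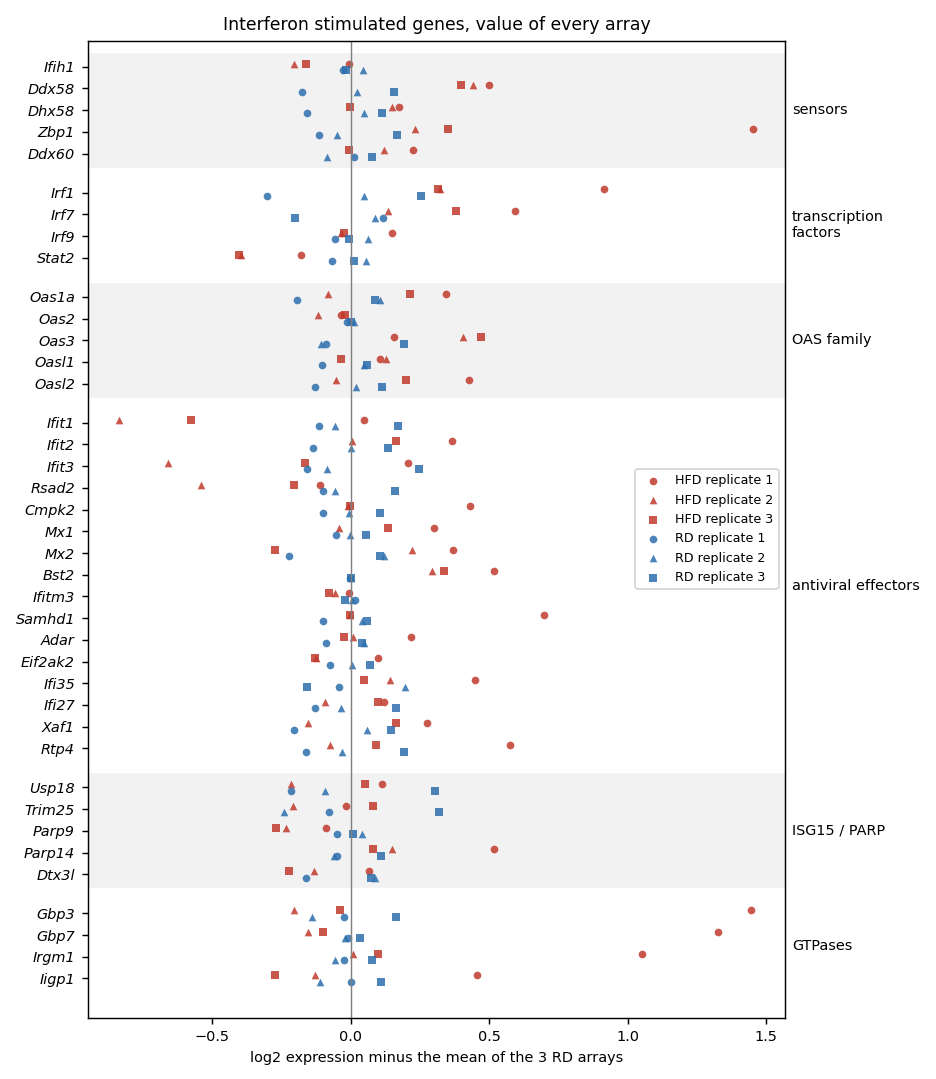
Each row is a measured member and each point 1 array, with log2 expression minus the mean of the 3 RD arrays on the x axis, HFD arrays in red above RD arrays in blue. The red circles (HFD replicate 1) of Zbp1, Gbp3, Gbp7 and Irgm1 lie 1.05 to 1.45 to the right of the RD mean, while the other HFD arrays of Gbp3, Gbp7 and Irgm1 stay near it.

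The antiviral effectors were the largest group, with 16 of 17 measured, of which 11 had a positive difference, 1 rose (Bst2) and 0 fell. Ifit1, Ifit2 and Ifit3 encode proteins that bind foreign RNA or block its translation. They are related genes, and whether the probe set of 1 also reads a relative was not checked. Ifit1 was at 8.78, 7.90 and 8.16 in HFD replicates 1, 2 and 3, against 8.62, 8.68 and 8.91 in RD replicates 1, 2 and 3. HFD replicate 1 lay within the RD range and the other HFD arrays well below it. The difference of -0.45 ± 0.20 did not pass over all arrays (adjusted p = 0.26 in limma) and was -0.71 without HFD replicate 1, where it passed (adjusted p = 0.026 in limma). Ifit3 showed the same order, at 9.79, 8.92 and 9.42 in HFD livers, against 9.42, 9.49 and 9.83 in RD livers, with a difference of -0.21 ± 0.20, or -0.41 without HFD replicate 1. Ifit2 had the opposite sign, at 0.18 ± 0.11, or 0.08 without HFD replicate 1. Neither Ifit3 nor Ifit2 passed (adjusted p = 0.65 and 0.42 in limma).

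Rsad2 encodes viperin, a radical enzyme that makes a chain-terminating nucleotide, and Cmpk2, its neighbour in the genome, encodes a nucleotide kinase. Rsad2 was at 8.70, 8.27 and 8.60 in HFD livers, against 8.71, 8.75 and 8.97 in RD livers. The groups did not overlap, although HFD replicate 1 and RD replicate 1 were almost equal. Its difference of -0.29 ± 0.12 did not pass (adjusted p = 0.24 in limma). Cmpk2 gave 8.48, 8.04 and 8.05 in HFD livers, against 7.95, 8.05 and 8.16 in RD livers, so its positive difference (0.14 ± 0.12) came from HFD replicate 1, and without that array it was -0.0060.

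Samhd1, a phosphohydrolase that depletes the nucleotides needed by retroviruses, was at 10.59, 9.89 and 9.89 in HFD livers, against 9.80, 9.94 and 9.95 in RD livers. Rtp4, which encodes an interferon-induced restriction factor of RNA viruses, was at 9.38, 8.73 and 8.90 in HFD livers, against 8.64, 8.78 and 8.999 in RD livers. In both genes HFD replicate 1 stood above all 5 other arrays, which overlapped between the diets. Samhd1 differed by 0.23 ± 0.18 and Rtp4 by 0.20 ± 0.16 with all arrays, and by -0.0016 and 0.0081 without HFD replicate 1. Ifitm3, which blocks virus entry at endosomes, stayed within 13.71 to 13.78 in HFD livers and 13.77 to 13.80 in RD livers. Adar, an RNA editor that restrains MDA5, and Eif2ak2, the kinase PKR that halts translation, differed by 0.07 ± 0.08 and -0.05 ± 0.08, with overlapping groups, and by -0.0090 and -0.13 without HFD replicate 1.

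The remaining effectors, Mx1, Mx2, Ifi35, Ifi27 and Xaf1, had differences between 0.04 (Ifi27) and 0.21 (Ifi35) with overlapping groups and no call. Without HFD replicate 1 the differences were 0.05 for Mx1, -0.03 for Mx2, 0.09 for Ifi35, 0.0033 for Ifi27 and 0.0041 for Xaf1. Mx1 and Mx2 encode dynamin-like GTPases that block viral nucleocapsids, and C57BL/6 mice are known to carry a defective Mx1 allele. Mx1 was at 6.25, 5.91 and 6.09 in HFD livers, against 5.90, 5.95 and 6.01 in RD livers. Mx2, with the largest RD SD of these 5 (0.19), was at 7.17, 7.02 and 6.53 in HFD livers, against 6.58, 6.92 and 6.90 in RD livers. Both genes had their highest value in HFD replicate 1.

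Genes around the ubiquitin-like modifier ISG15 and the ADP-ribosyltransferases had a negative difference in 4 of 5 measured members, with a median of -0.05 and 0 calls. Parp9, which works in a complex with the ubiquitin ligase encoded by Dtx3l, was at 9.46, 9.32 and 9.28 in HFD replicates 1, 2 and 3, against 9.50, 9.59 and 9.56 in RD replicates 1, 2 and 3. Its groups did not overlap, and its difference of -0.20 ± 0.07 did not pass (adjusted p = 0.18 in limma). Dtx3l gave 10.74, 10.54 and 10.45 in HFD livers, against 10.51, 10.76 and 10.74 in RD livers, with overlap and a difference of -0.10 ± 0.10, or -0.18 without HFD replicate 1. Parp14, a large relative of Parp9 in the same gene neighbourhood, had the opposite sign, at 9.52, 9.16 and 9.09 in HFD livers, against 8.96, 8.95 and 9.12 in RD livers. Its difference was 0.25 ± 0.12 and did not pass (adjusted p = 0.29 in limma), and it was 0.11 without HFD replicate 1. Usp18, which removes ISG15 and dampens the interferon receptor, and Trim25, a ligase linked to RIG-I activation, differed by -0.02 ± 0.14 and -0.05 ± 0.14, and Usp18 by -0.08 without HFD replicate 1. Both of these were highest in RD replicate 3.

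The guanylate-binding proteins and immunity-related GTPases, families known for strong induction by interferon gamma, separated HFD replicate 1 most clearly from the other arrays. Only 4 of 9 listed were measured, the rest lying on shared probe sets, and 0 passed. Gbp3 was at 8.93, 7.28 and 7.45 in HFD replicates 1, 2 and 3, against 7.46, 7.35 and 7.65 in RD replicates 1, 2 and 3. Gbp7 was at 10.91, 9.43 and 9.48 in HFD livers, against 9.57, 9.56 and 9.62 in RD livers. In both, HFD replicate 1 was about 1.5 units above the rest of its group, and the other HFD arrays were within or below the RD range.

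Irgm1, a regulator of the immunity-related GTPases, was at 10.58, 9.54 and 9.62 in HFD livers, against 9.50, 9.47 and 9.60 in RD livers. Iigp1, an effector of that family, was at 12.35, 11.77 and 11.62 in HFD livers, against 11.90, 11.78 and 12.00 in RD livers. HFD replicate 1 was again the highest of the 6 arrays in each. The mean differences were 0.40 ± 0.37 for Gbp3, 0.36 ± 0.34 for Gbp7, 0.39 ± 0.24 for Irgm1 and 0.02 ± 0.17 for Iigp1, and the smallest adjusted p was 0.43 (Irgm1, limma). Without HFD replicate 1 they were -0.12, -0.13, 0.05 and -0.20. Averaged over these 4 genes, HFD replicate 1 lay 1.07 above the RD mean, while HFD replicates 2 and 3 lay at -0.12 and -0.08. Genes of these families resemble each other in sequence, so the signal of a probe set may include a relative.

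The spread among the HFD arrays was wider for the members than for genes at large. The SD over HFD arrays exceeded that over RD arrays in 32 of 39 members (82.1%, against 51.4% of all genes). The median SD of the members was 0.18 in HFD and 0.13 in RD, against 0.093 and 0.089 over all genes. The members thus also spread more than genes at large among the RD arrays. HFD replicate 1 was at least 1.5-fold above the mean of HFD replicates 2 and 3 in 9 members (23.1%; 0.873% of all genes), which were Gbp3, Gbp7, Zbp1, Irgm1, Ifit1, Samhd1, Iigp1, Ifit3 and Irf1. This fold was used as a size and not as a test. By this excess Gbp3 ranked 7 of 19938 genes, Gbp7 ranked 10, Zbp1 20 and Irgm1 30, and 5 members were among the top 100. The 4 members in which another HFD array was highest were Oas2, Oas3, Oasl1 and Trim25. The median excess over the members was 0.26, or 1.23 over the 4 GTPases and 0.06 over the oligoadenylate synthetases (-0.0015 over all genes).

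**Figure D4:**
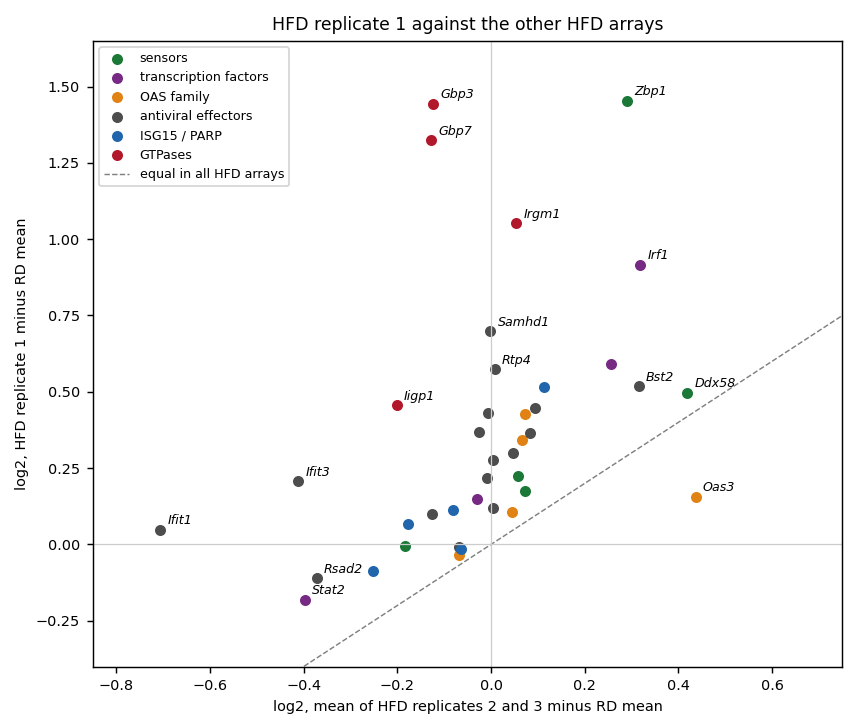
Each point is a measured member, coloured by role, with the mean of HFD replicates 2 and 3 minus the RD mean on the x axis and HFD replicate 1 minus the RD mean on the y axis, both log2. On the dashed line the HFD arrays would be equal; Gbp3, Gbp7 and Irgm1 are high on the y axis and near 0 on the x axis, Ddx58 lies close to the line, and Oas3 lies below it.

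The RD arrays also had a common order for the members, of smaller size. RD replicate 1 was the lowest RD array in 28 of 39 members (71.8%; 36.7% of all genes), and RD replicate 3 was the highest in 27 (69.2%; 40.1% of all genes). The median member lay 0.15 below its mean over all arrays in RD replicate 1 (-0.15) and 0.02 above it in RD replicate 3. Irf7, Ifi35 and Ifitm3 went against this order, with their lowest RD value in RD replicate 3.

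Upstream of these genes, 38 of 41 listed genes of the interferon pathway that are not members were measured, and 3 rose (3.11% of all genes rose) and 0 fell (2.24% of all genes fell). At an unadjusted p under 0.05, 7 were higher and 2 lower in limma, where 11.0% and 8.65% of all genes were. The 3 that rose were Ifnar2, a chain of the type I interferon receptor, Tlr3, the endosomal receptor of double-stranded RNA, and Myd88, the adaptor of most Toll-like receptors. Ifnar2 was at 12.33, 12.25 and 12.15 in HFD livers, against 11.90, 11.90 and 11.99 in RD livers, a difference of 0.31 ± 0.07 (adjusted p = 0.045 in limma). Tlr3 was at 8.40, 8.17 and 8.25 in HFD livers, against 7.72, 7.98 and 7.91 in RD livers, a difference of 0.40 ± 0.09 (adjusted p = 0.045 in limma). Myd88 was at 11.29, 11.08 and 10.87 in HFD livers, against 10.56, 10.60 and 10.61 in RD livers, a difference of 0.49 ± 0.10 (adjusted p = 0.032 in limma). In all 3 genes every HFD array was above every RD array, with HFD replicate 1 the highest. With any array dropped the calls of Ifnar2 and Tlr3 were lost (highest adjusted p 0.15 and 0.14 in limma), and that of Myd88 was kept in the fit without HFD replicate 3 alone (highest adjusted p 0.11). Sting1, the adaptor of cytosolic DNA sensing and named after its values were seen, had the largest difference of the upstream genes, at 9.15, 8.61 and 8.44 in HFD livers, against 7.80, 8.15 and 8.05 in RD livers. Its groups did not overlap, and its difference of 0.73 ± 0.18 (adjusted p = 0.051 in limma) just missed the threshold, which it passed without HFD replicate 3 (adjusted p = 0.045 in limma) and under 5 settings given in the closing section.

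Of the interferons themselves 8 were measured, 6 with a negative difference, and 0 passed. Ifna5 differed by -0.25 ± 0.07 and Ifna2 by -0.26 ± 0.09, with HFD arrays wholly below RD arrays in both (adjusted p = 0.096 and 0.15 in limma). Ifng, named after its values were seen, was at 6.39, 6.07 and 6.17 in HFD livers, against 6.23, 5.97 and 6.40 in RD livers, so HFD replicate 1 was within the RD range. All of these Ifng values lay below the array medians of 7.06 to 7.11. No detection call was made, so whether the interferon probe sets read more than background was not tested. Of the kinases and STAT factors, Jak2 and Stat3 had the smallest p, with differences of 0.12 ± 0.08 and 0.11 ± 0.10 (0.03 for Stat3 without HFD replicate 1) and no call. Irf8, a factor of macrophages and dendritic cells, differed by 0.40 ± 0.14 without a call (adjusted p = 0.14 in limma), and Irf2 by 0.13 ± 0.09; without HFD replicate 1 they differed by 0.23 and 0.20. The inhibitors Socs3 (0.47 ± 0.20) and Socs1 (0.21 ± 0.10), which block JAK kinases, were higher in each HFD array than in each RD array and did not pass (adjusted p = 0.23 and 0.30 in limma), and without HFD replicate 1 they differed by 0.26 and 0.10. Ifngr1, a chain of the interferon gamma receptor, differed by 0.18 ± 0.08, or 0.09 without HFD replicate 1, also without a call.

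Some lists of cell type markers were also high in HFD replicate 1, and their part in the results was not tested. Averaged over each list, that array lay 0.85 above the RD mean for Kupffer cell and 0.61 for T and NK cell markers. It lay 0.59 above for cholangiocyte and 0.36 for monocyte and neutrophil markers. It lay 0.19 above for sinusoidal endothelial, 0.18 for plasmacytoid dendritic cell, 0.14 for B cell, 0.08 for stellate cell and 0.03 for hepatocyte markers. The Kupffer cell and cholangiocyte lists were above the RD mean in HFD replicates 2 and 3 too, where the median member was not. Of 10 Kupffer cell markers 10 had a positive difference and 5 rose, where 3.11% of all genes rose. HFD replicate 1 was the highest HFD array in 9 of the 10. Their summed signal was 16543 to 23332 in HFD arrays and 13711 to 14385 in RD arrays, with the top value in HFD replicate 1. Cd5l, a protein secreted by macrophages, and Timd4, a receptor of resident macrophages, rose by 0.85 ± 0.12 and 0.67 ± 0.11 (adjusted p = 0.0066 and 0.016 in limma). Both calls were lost under some alternatives (highest adjusted p 0.11 and 0.14, in limma or the unmoderated linear model). Of 10 markers of T and NK cells, which make interferon gamma, 0 passed in limma (0 also at an unadjusted p under 0.05), but HFD replicate 1 was the highest HFD array in 9, and their summed signal was 1564, 1000 and 1137 in HFD replicates 1, 2 and 3, against 1039, 1050 and 1084 in RD replicates 1, 2 and 3. By gene, 7 of these 10 had a positive difference and 3 a negative one. Gzmb, the cytotoxic granule protease, had the largest, at 7.29, 6.19 and 6.51 in HFD livers, against 5.96, 6.18 and 6.27 in RD livers. Prf1 had the lowest, at 6.85, 6.70 and 7.07 in HFD livers, against 7.04, 6.94 and 7.01 in RD livers. Of 4 markers of plasmacytoid dendritic cells, a source of type I interferon, 1 rose (Ly6d, at 0.61 ± 0.11, adjusted p = 0.019 in limma), 2 had differences below 0, and the list median was 0.02. Ly6d was named after its values were seen, and dropping HFD replicate 1, HFD replicate 3, RD replicate 1 or RD replicate 2 lost its call (highest adjusted p 0.080 in limma). The summed signal of the 4 was 838 to 1006 in HFD arrays and 743 to 756 in RD arrays with Ly6d, and 353 to 378 in HFD arrays and 361 to 384 in RD arrays without it. All 4 cholangiocyte markers measured rose, where 3.11% of all genes did. Their summed signal was 1142 to 1300 in HFD arrays and 841 to 931 in RD arrays. HFD replicate 1 was also the highest HFD array in 7 of 8 sinusoidal endothelial, 3 of 3 B cell and 5 of 7 monocyte and neutrophil markers. The same held in 4 of 7 stellate cell and 5 of 7 hepatocyte markers, beside 33.6% of all genes. No marker is at 0 on this scale.

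Antigen presentation genes, another set of interferon targets, were also high in HFD replicate 1. Of 15 listed 13 were measured, without H2-K1 and H2-D1, and 0 passed in limma (5.35% of all genes in either direction). At an unadjusted p under 0.05, 1 was higher in limma, where 11.0% of all genes were. All 13 had a positive difference, and HFD replicate 1 was the highest of all 6 arrays in 13 (20.0% of all genes). It was at least 1.5-fold above the mean of the other HFD arrays in 9 (0.873% of all genes), but only 0.03 above it in B2m. H2-Eb1, a class II chain, was at 11.41, 9.92 and 9.98 in HFD livers, against 9.49, 9.92 and 9.57 in RD livers.

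**Figure D5:**
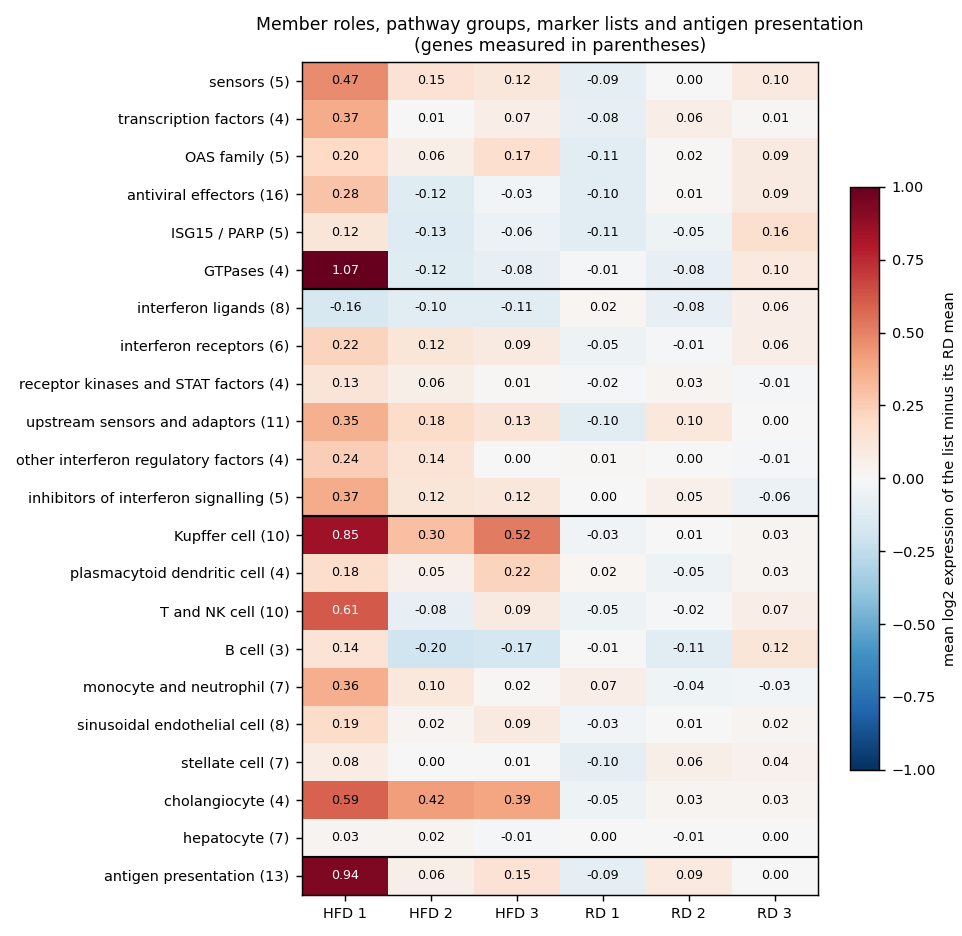
Rows are the roles of the members, the groups of upstream genes, the marker lists and the antigen presentation genes, columns are the 6 arrays, and the number and colour (which ends at 1) give the mean log2 expression of the list minus its RD mean. The highest lists in HFD replicate 1 are the GTPases (1.07), the antigen presentation genes (0.94) and the Kupffer cell markers (0.85). The T and NK cell (0.61) and cholangiocyte markers (0.59) follow. In HFD replicates 2 and 3 the Kupffer cell (0.30 and 0.52) and cholangiocyte markers (0.42 and 0.39) are above 0. The GTPases are not.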

How the data were processed

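Liver RNA of 6 samples was labelled with a GeneChip kit and hybridised to arrays, per the labels. The deposited table holds 1 value per probe set and array, 35512 in all, on a log2 scale; base 2 was inferred from the range of the values (2.28 to 14.86), and the sources used here do not say how the authors summarised and normalized them. Probe sets were named through the platform annotation, which can be old: 21789 rows carry 1 symbol, 1621 several and 12102 are not listed. The 19938 genes were fitted with diet alone in limma 3.58.1 (R 4.3.3, lmFit and eBayes) and adjusted by Benjamini-Hochberg. The steps were tested on simulated data. Members and gene lists were chosen with earlier results of these data known. Values of every array are given for members that passed and for at least the 2 members of each role, and differences for the 2 upstream genes of each group, with the smallest unadjusted p. No detection call, scan date or batch entered the fits. Alternatives were other normalizations, filters, variance models and each array left out.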

Additional observations from a re-analysis of the deposited data

How the results depend on the processing

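The number of arrays sets the limit, and background signal and batch were not tested. The counts of calls depended on the setting. With every row of the table tested, the replicate number as a block or an unmoderated linear model, 0 members and 0 upstream genes rose. With every row more features enter the adjustment, and for the block and the unmoderated model the cause was not tested. With a fold of at least 1.5 as well the counts were also 0, since the called genes had folds of 1.24 (Ifnar2) to 1.41 (Myd88). Without 1 array, 0 to 1 members and 0 to 2 upstream genes rose and 0 to 2 members fell, the 2 being Ifit1 and Stat2 without HFD replicate 1. With quantile normalization, with the genes above the median level or with an intensity trend and robust prior, 1 member fell, Stat2 (adjusted p = 0.033, 0.029 and 0.031), and with the genes above the median level 1 upstream gene fell, Ifna5. Upstream genes that rose numbered 4, Sting1 among them, with quantile normalization, median centring, the genes above the median level, an intensity trend and robust prior, or array weights. The median difference of the members ran from -0.0016 (without HFD replicate 1) to 0.16. Pairing of the arrays by replicate number was not seen. Deviations of same-numbered arrays correlated at -0.11, 7.2e-05 and 0.12, and not every array correlated best with its own number. With 3 arrays per diet such values cannot exclude shared handling of same-numbered arrays. Over the alternatives 33 to 36 members of those measured were highest in HFD replicate 1 among the HFD arrays, or 30 of 33 above the median level; these alternatives were chosen after seeing the data. Of 877 alternatives for 59 named genes, 794 kept direction and side of the threshold, 53 lost a call, 12 gained one and 18 changed sign. Usp18 was 0.0038 with median centring. Leaving out 1 array gave differences of -0.0090 to 0.11 for Adar, -0.0060 to 0.21 for Cmpk2, -0.12 to 0.70 for Gbp3, -0.13 to 0.61 for Gbp7, -0.023 to 0.12 for Ifi27, -0.41 to 0.021 for Ifit3, -0.20 to 0.16 for Iigp1, -0.030 to 0.062 for Irf9, -0.026 to 0.29 for Mx2, -0.0016 to 0.35 for Samhd1, -0.17 to 0.11 for Trim25, -0.12 to 0.14 for Usp18 and -0.0070 to 0.22 for Xaf1.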

Other observations

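Other genes that stood high in HFD replicate 1 were read from the values and are given with no test. In 174 of 19938 genes HFD replicate 1 was at least 1.5-fold above the mean of HFD replicates 2 and 3, and in 19 it was lower by that fold. Besides members, the genes with the largest excess on the log2 scale were BC023105 (2.39), the peptide transporter Slc15a2 (1.98), Gm12250 (1.83), the chemokine Cxcl9 (1.81), which attracts T cells and is a textbook target of interferon gamma, and Gbp4 (1.70), a relative of the 2 measured guanylate-binding members. Cxcl9 was at 12.68, 10.74 and 10.99 in HFD replicates 1, 2 and 3, against 9.87, 10.35 and 10.13 in RD replicates 1, 2 and 3, so the other HFD arrays were above the RD arrays as well. Gbp4 was at 9.73, 7.99 and 8.06 in HFD livers, against 8.01, 7.92 and 8.11 in RD livers, where the other HFD arrays were not. The chemokine Cxcl10 (1.44) and Cd274 (1.31), which encodes the checkpoint ligand PD-L1, were also among the 20 highest.

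Of the guanylate-binding family outside the list, Gbp2b, Gbp5, Gbp8 and Gbp9 were highest in HFD replicate 1 of all 6 arrays, by 0.88 to 1.17 above the mean of the other HFD arrays. Gbp11 was the exception, with 9.37, 8.18 and 8.39 in HFD livers, against 9.66, 8.75 and 8.58 in RD livers, so that its highest value was in RD replicate 1.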
